A study of Mus musculus with 2 samples.

Results

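The genes described here encode 9 interferon-inducible GTPases of the mouse, 5 guanylate-binding proteins (Gbp2, Gbp3, Gbp5, Gbp6 and Gbp7) and 4 immunity-related GTPases (Irgm1, Irgm2, Igtp and Iigp1), out of 21938 protein-coding genes in GENCODE release M21. They were chosen by name, and each was searched for peaks of trimethylated histone H3 lysine 4 (H3K4me3), a mark of promoters, within 5 kb of any annotated transcript start. Peaks came from ChIP-seq (sequencing of immunoprecipitated chromatin) of C57BL/6J bone marrow-derived macrophages, primary cells grown from marrow progenitors, with no stimulus given. There was 1 group of 2 biological replicates, each starting from 10 ng of DNA. The labels give them as separate cell preparations under a single donor entry and leave the sex unrecorded and the age unknown, so the spread between them may be technical. The authors gave a peak list for each replicate and 2 lists of the whole series, one called on the alignments of both replicates together (the pooled list) and one of replicated peaks. A gene is called marked where the own lists of both replicates hold such a peak.

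Guanylate-binding proteins and immunity-related GTPases are among the most strongly interferon-inducible proteins of mouse cells, and interferon gamma is their main inducer in macrophages. They assemble on the vacuoles of intracellular bacteria and parasites and on bacteria in the cytosol, and take part in destroying those compartments and exposing microbial products to inflammasomes. Irgm1, Irgm2 and Igtp (also called Irgm3) encode regulatory members that sit on the cell's own membranes, whereas Iigp1 encodes an effector that loads onto pathogen vacuoles. Interferon-responsive promoters often hold the gamma-activated sequence (GAS) or the interferon-stimulated response element (ISRE), the latter bound by interferon regulatory factors.

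Among the marked members, Gbp7 had the highest fold, Gbp2 a low fold and Irgm1 the widest domain. Igtp and Irgm2 neighbour each other and share sequence. The promoter sequences of these 5 genes are shown as examples. Each runs from 250 bases before to 50 after the RefSeq start on GRCm38.p6 (mm10), 5′ to 3′ on the strand of the gene, and capitals mark copies of the GAS letters TTCNNNGAA or the ISRE core letters GAAANNGAA on either strand. The windows are chr3:142530086-142530385 (plus strand) for Gbp7, chr3:142620413-142620712 (plus) for Gbp2, chr11:48871371-48871670 (minus) for Irgm1, chr11:58199306-58199605 (plus) for Igtp and chr11:58214727-58215026 (plus) for Irgm2.
Gbp7: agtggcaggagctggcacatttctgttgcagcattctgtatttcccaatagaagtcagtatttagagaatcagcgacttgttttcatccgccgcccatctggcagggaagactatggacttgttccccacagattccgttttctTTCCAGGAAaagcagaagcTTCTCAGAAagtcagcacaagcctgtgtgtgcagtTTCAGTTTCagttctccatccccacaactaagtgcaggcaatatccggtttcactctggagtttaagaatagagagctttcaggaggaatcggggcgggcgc
Gbp2: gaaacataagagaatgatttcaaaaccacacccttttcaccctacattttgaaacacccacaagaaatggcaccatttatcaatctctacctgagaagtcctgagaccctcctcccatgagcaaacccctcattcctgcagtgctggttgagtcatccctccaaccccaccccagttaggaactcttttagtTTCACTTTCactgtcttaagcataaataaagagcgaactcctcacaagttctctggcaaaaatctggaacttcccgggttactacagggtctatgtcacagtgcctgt
Irgm1: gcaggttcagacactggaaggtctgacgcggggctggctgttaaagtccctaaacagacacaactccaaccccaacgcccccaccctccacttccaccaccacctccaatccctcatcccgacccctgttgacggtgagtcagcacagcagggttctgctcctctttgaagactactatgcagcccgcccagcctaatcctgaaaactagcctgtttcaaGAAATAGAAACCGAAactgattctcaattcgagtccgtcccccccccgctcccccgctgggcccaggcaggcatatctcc
Igtp: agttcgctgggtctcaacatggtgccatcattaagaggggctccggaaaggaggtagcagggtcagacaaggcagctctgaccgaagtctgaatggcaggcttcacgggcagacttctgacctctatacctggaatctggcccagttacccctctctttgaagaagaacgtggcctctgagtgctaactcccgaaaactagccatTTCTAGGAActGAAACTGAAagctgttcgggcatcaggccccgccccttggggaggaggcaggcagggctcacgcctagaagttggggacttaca
Irgm2: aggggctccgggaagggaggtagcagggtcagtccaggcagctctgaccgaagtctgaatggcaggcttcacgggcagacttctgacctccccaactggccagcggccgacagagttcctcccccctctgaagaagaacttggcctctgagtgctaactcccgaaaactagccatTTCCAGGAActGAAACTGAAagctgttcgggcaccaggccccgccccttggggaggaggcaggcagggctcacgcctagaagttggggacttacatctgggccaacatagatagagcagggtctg

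Of the 9 members, 7 had an entry in the RefSeq promoter table (Gbp6 and Iigp1 had none), and each of the 7 held at least 1 ISRE core, against 8.56% of the 32851 promoters in the table. The GAS letters were found in 4 of the 7 (Gbp5, Gbp7, Irgm2 and Igtp), against 8.30% of all promoters in the table. These 7 are the marked members, and the letters were not particular to marked genes: over all listed genes of both families in the table, 8 of 11 marked and 5 of 6 unmarked genes held an ISRE core, and 5 and 3 held GAS. At Gbp7 the GAS copies began 106 and 87 bases upstream of the start and the ISRE core 52 bases upstream. At Igtp the GAS began 45 and the ISRE core 34 bases upstream, and at Irgm2 they began 75 and 64 bases upstream, so that the pair stood in the same order and spacing in both genes. In an alignment of the Igtp and Irgm2 windows, 73.5% of 336 columns were identical, the highest value among pairs of the 7 promoters, the next being 54.2% for Igtp and Irgm1. Irgm1 held overlapping ISRE cores beginning 30 and 24 bases upstream, and Gbp3 held overlapping copies beginning 44 and 38 bases upstream. Gbp2 had a single ISRE core 58 bases upstream. On either strand, the letters GAGGAAGT, a binding sequence of the myeloid factor PU.1, were in none of the 7 windows (3.20% of all promoters). The TATA box letters TATAAA, sought on either strand, were in 1, Gbp3 (13.6% of all promoters). That single copy lay on the strand opposite to the gene and began 207 bases upstream of the start. A match of letters is a description of the window and does not show that a factor binds there.

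Unstimulated macrophages carried H3K4me3 at 7 of the 9 GTPase genes. Gbp2, Gbp3, Gbp5, Gbp7, Irgm1, Irgm2 and Igtp had a peak in both replicates, whereas Gbp6 and Iigp1 had one in replicate 1 only. Of all protein-coding genes, 51.7% were called marked by the same rule. The replicate 1 list held a peak at 9 of 9 members (56.1% of coding genes), the replicate 2 list at 7 (51.7%), the pooled list at 8 (55.1%) and the replicated list at 7 (53.6%). A peak lay over an annotated start in both replicates at 7 of the 9 members, the marked ones. The same held for 7745 (35.3%) of the 21938 coding genes, of which 11343 were marked. The members were chosen with earlier results of these data known, and no test of the list was made. In a bulk preparation, fewer cells carrying the mark and less mark per cell cannot be told apart.

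**Figure D1:**
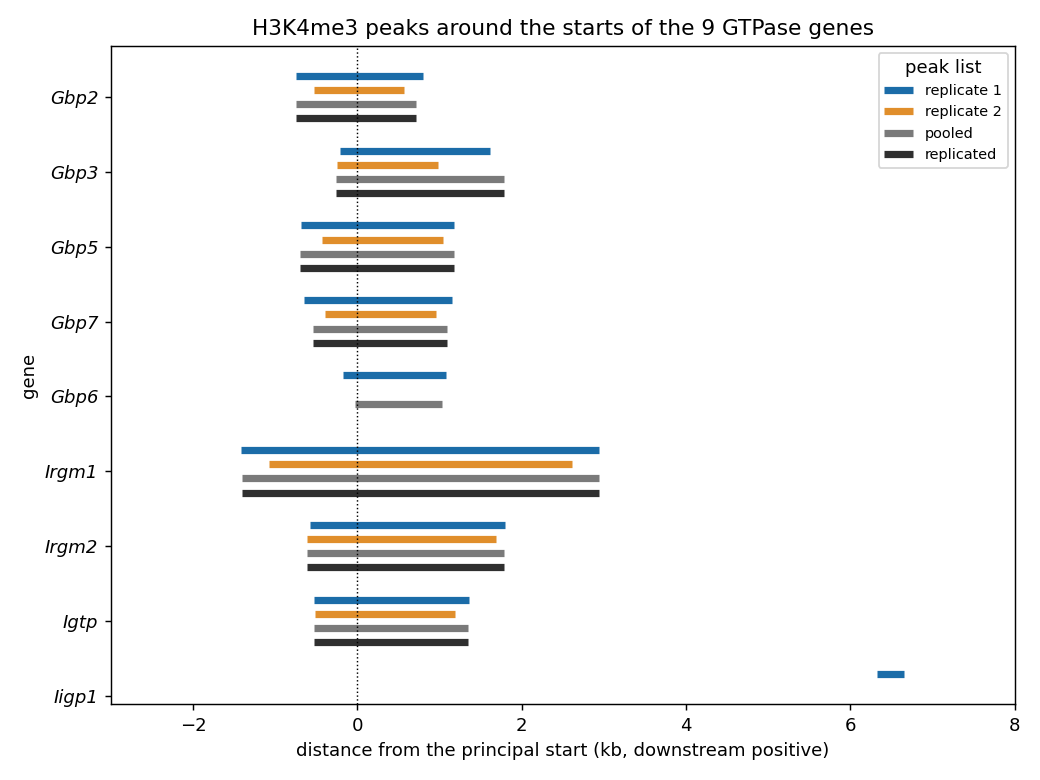
Horizontal bars show each H3K4me3 peak around the principal start (kb, downstream positive; dotted line at the start) of each of the 9 genes, coloured by peak list. All 7 marked genes have a peak over the start in every list, Gbp6 has one in replicate 1 and the pooled list, and the only Iigp1 bar lies 6329 bp downstream; a second Irgm2 peak, over the Igtp start, falls outside the axis.

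The chromosome 3 cluster was marked at 4 of its 5 listed guanylate-binding protein genes. Gbp7, which has been linked to assembly of the phagocyte oxidase, stood highest: its peak had the authors' fold of 55.9 in replicate 1, 23.6 in replicate 2 and 40.1 in both the pooled and the replicated list. The fold is the peak caller's enrichment for that peak and can be compared only within a list. In replicate 1 the Gbp7 value exceeded 96.8% of all peaks and in replicate 2 it exceeded 96.4%. The peak was chr3:142529689-142531489 in replicate 1 and chr3:142529945-142531295 in replicate 2, over the annotated start of Gbp7 alone.

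Gbp5, whose product has been tied to the NLRP3 inflammasome, had folds of 24.6 in replicate 1, 9.97 in replicate 2 and 16.1 in the pooled and replicated lists. These stood near the middle of each replicate's list, above 54.3% and 46.6% of peaks. The peak covered the principal start at position 142496900 of chromosome 3, and no peak covered the noncoding start annotated upstream at position 142493978. Gbp2, whose product coats cytosolic and vacuolar bacteria, had folds of 14.4, 7.69, 12.4 and 12.4 in the replicate 1, replicate 2, pooled and replicated lists. Gbp3 had 15.3, 5.35, 10.1 and 10.1 in the same order. Both were in the lower part of each list, Gbp2 above 39.0% and 34.2% of the peaks of replicates 1 and 2 and Gbp3 above 40.2% and 19.7%. Between Gbp3 and Gbp2 lies Gbp2b, which had no peak within 5 kb of its start in any list.

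Among the regulatory immunity-related GTPases on chromosome 11, all 3 members were marked. Irgm1, which is needed for control of mycobacteria in mice, had folds of 29.7 in replicate 1, 12.7 in replicate 2 and 20.4 in the pooled and replicated lists, above 61.9% and 59.6% of the peaks of the replicates. Irgm2 had folds of 37.9, 12.7, 24.8 and 24.8, above 74.1% and 59.0% of the peaks of the replicates. Igtp had folds of 25.6, 8.88, 17.1 and 17.1, above 55.6% and 40.8%. The principal starts of Igtp and Irgm2 lie 15472 bp apart and each had its own peak. A longer Irgm2 transcript starts within the Igtp peak, at position 58199618, so that peak (chr11:58199032-58200916 in replicate 1) counts for both genes. The peak at the principal start of Irgm2 was chr11:58214450-58216820 in replicate 1 and chr11:58214418-58216709 in replicate 2, with no other gene's start in it.

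The order of the folds placed Gbp7 first in each of the 4 lists. Irgm1 and Irgm2 followed in each list, then Gbp5 and Igtp, then Gbp2 and Gbp3. Within each of these 3 pairs the order turned between the replicates: Irgm2 stood above Irgm1 in replicate 1 (37.9 against 29.7) and level with it in replicate 2 (12.66 against 12.71), Igtp above Gbp5 in replicate 1 and below it in replicate 2, and Gbp3 above Gbp2 in replicate 1 and below it in replicate 2. The members of a pair thus could not be ranked from these 2 libraries. The median fold of all peaks was 21.7 in replicate 1 and 10.7 in replicate 2. Of the members with a peak, 5 of 9 stood above it in replicate 1 and 3 of 7 in replicate 2. That median is over all peaks, whereas each member gives its highest peak near a start. The share of coding genes above it was not computed, so these counts have no background beside them.

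**Figure D2:**
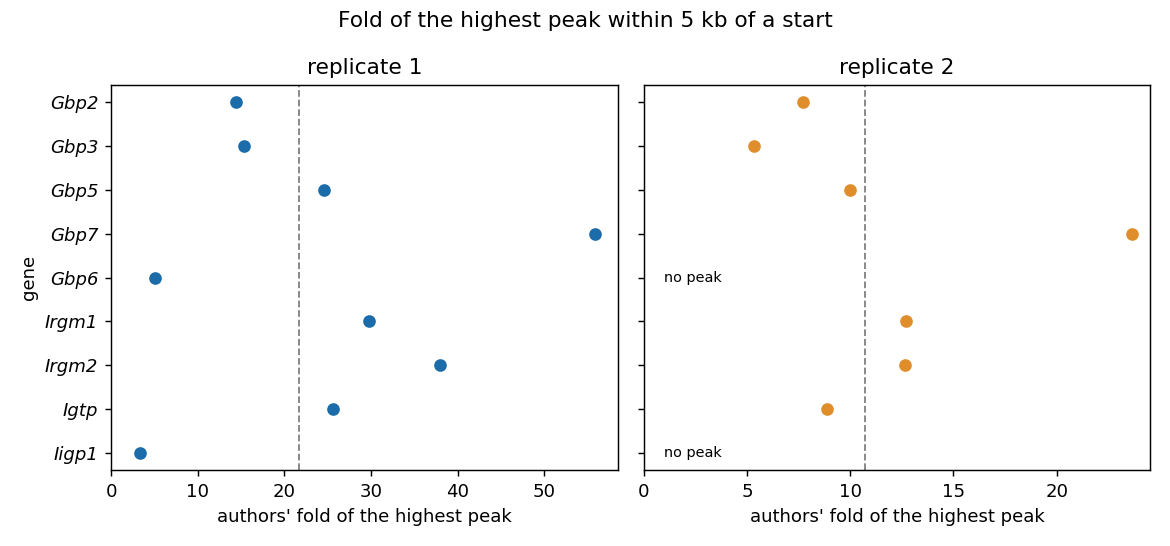
Points give the authors' fold of the highest peak within 5 kb of a start for each gene, in replicate 1 (left) and replicate 2 (right), on separate linear axes, and the dashed line is the median of all peaks of the list. Gbp7 stands farthest to the right in both panels, at 55.9 and 23.6, and Gbp6 and Iigp1 have no peak in replicate 2.

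Gbp6 and Iigp1 had low-fold peaks in replicate 1 and none in replicate 2, and so were not called marked. Gbp6, a gene of the chromosome 5 cluster, had a peak over its start in replicate 1 with a fold of 5.04, above 11.3% of the peaks of that list, and a −log10 q of 10.4. In the pooled list its fold was 3.09, above 2.79% of peaks, and the replicated list had no peak there. The nearest peak of replicate 2 was 121265 bp away. The start of Gm43302, a second coding gene model, lies 1 bp from a Gbp6 start, so the peak cannot be assigned to one of them. Iigp1 had a peak of 328 bp in replicate 1 with a fold of 3.36, above 1.46% of the peaks of that list, and a −log10 q of 3.97. It lay at chr18:60382376-60382703, over an internal alternative start and not the principal start, 6329 bp upstream of it, which had no peak within 5 kb in any list. The nearest peaks to any Iigp1 start were 117542 bp away in replicate 2 and 117091 bp away in the pooled and replicated lists. No member lay close to the 5 kb limit in either direction.

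Domain widths, after joining peaks within 1 kb of each other, separated Irgm1 and Irgm2 from the rest. Irgm1 had a domain of 4368 bp in replicate 1 and 3699 bp in replicate 2, a mean of 4033.5 ± 473 bp (SD, n = 2), wider than 95.2% of the 11343 marked coding genes. Irgm2 had 2371 and 2292 bp, a mean of 2331.5 ± 55.9 bp (SD, n = 2), wider than 66.0% of them. The values of the 2 genes did not overlap each other or those of the other members. The other 5 marked members were narrower than the median marked coding gene, 1962.5 bp.

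Igtp had 1885 bp in replicate 1 and 1698 bp in replicate 2, a mean of 1791.5 ± 132 bp (SD, n = 2). Gbp5 had 1859 and 1473 bp, a mean of 1666 ± 273 bp, and Gbp7 had 1801 and 1351 bp, a mean of 1576 ± 318 bp (SD, n = 2 for each). The domain of Gbp7 was thus wider than only 31.3% of marked coding genes although its fold was near the top of each list. Gbp3 had 1820 and 1229 bp, a mean of 1524.5 ± 418 bp, and Gbp2 had 1552 and 1093 bp, a mean of 1322.5 ± 325 bp (SD, n = 2 for each). From Igtp down to Gbp2 the ranges of neighbouring genes overlapped between the replicates, and those of Igtp and Gbp2, at the ends, did not. Within each library the order was the same except for Gbp7 and Gbp3, which changed places. All 7 domains were wider in replicate 1, as were 98.8% of the domains of marked coding genes. In the single replicate where they had a peak, Gbp6 measured 1264 bp and Iigp1 328 bp.

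**Figure D3:**
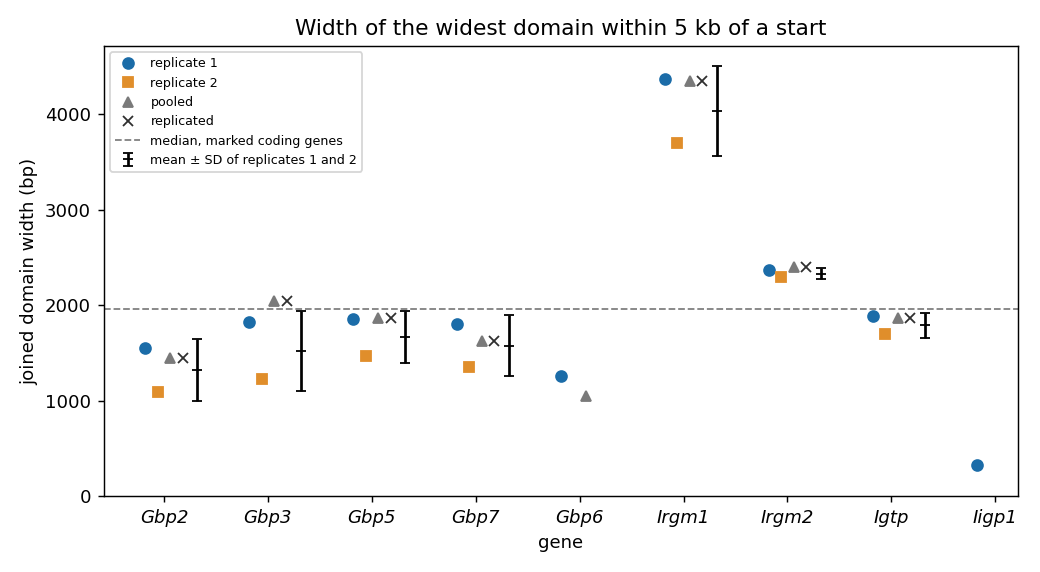
Symbols give the width (bp) of the widest joined domain within 5 kb of a start for each gene in each of the 4 lists, bars give the mean ± SD of replicates 1 and 2 (n = 2), and the dashed line is the median of marked coding genes, 1962.5 bp. Irgm1 lies far above the line in all lists and Irgm2 above it, and Gbp3 crosses it in the pooled and replicated lists at 2043 bp. The line was computed from the own lists of the replicates, and no such median was computed for the pooled and replicated lists.

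Measured from the principal start, the peaks reached farther into the gene than upstream of it. At Irgm1 the peak of replicate 1 ran from -1424 to 2943 bp relative to the principal start (negative upstream), and that of replicate 2 from -1083 to 2615 bp. At Gbp3 the upstream edges were at -208 and -253 bp and the downstream edges at 1611 and 975 bp. At Gbp2 the reach was nearly even, from -751 to 800 bp in replicate 1 and from -526 to 566 bp in replicate 2. The downstream side was longer in both replicates at 7 of 7 marked members, against 68.4% of the 5407 coding genes with a peak over the principal start in both replicates. For Gbp2 this depends on the start used. Its RefSeq start lies 61 bp downstream of the principal start, and from there the upstream side would be the longer in both replicates. Summits lay 395 to 420 bp downstream of the start at Irgm1 and 405 to 415 bp at Irgm2 in the replicates. At Igtp the summit was at -197 bp in replicate 1 and 525 bp in replicate 2, and at Gbp2 at -92 and 193 bp. The place of the summit was thus not fixed by these libraries at either gene.

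Most members had promoters poor in CpG dinucleotides, a feature of many inducible genes, while CpG-rich promoters carry H3K4me3 in most cell types. The CpG observed/expected ratio over 1000 bases on either side of the principal start had a median of 0.240 over the 9 members, compared with 0.481 over coding genes. Gbp7 had the highest ratio among the members, 0.432, followed by Irgm1 with 0.402 and Gbp5 with 0.352. Gbp6 and Iigp1, the members without a peak in replicate 2, had the lowest ratios, 0.0558 and 0.0803, which are below those of all but 1.53% and 3.86% of coding genes. Gbp2 was marked with a ratio of only 0.109. Among the other genes of these families, Gbp9 was marked with 0.0711 and Gm5431 with 0.0913. Over all listed genes, 10 of the 14 marked and all 9 with a peak in neither replicate fell in the lowest tertile of coding genes. Of the 9 members, 6 fell in the lowest tertile of coding genes, and 4 of these 6 (Gbp2, Gbp3, Irgm2 and Igtp) were marked, against 14.5% of all coding genes in that tertile. The ratio stood above 8.09% of coding genes at Gbp2, 22.9% at Gbp3, 28.5% at Igtp and 32.6% at Irgm2. The 14.5% is taken over the whole tertile and is not matched to these places within it.

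**Figure D4:**
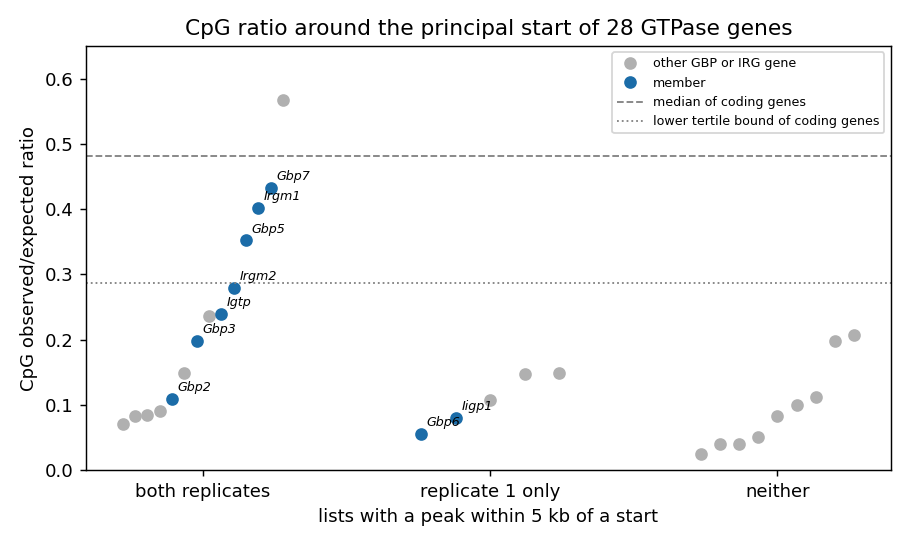
Points give the CpG observed/expected ratio around the principal start of 28 GTPase genes (members in blue and named, others in grey), grouped by whether both replicates, replicate 1 only or neither had a peak within 5 kb of a start. The dashed line is the median of coding genes (0.481) and the dotted line the lower tertile bound (0.287), and 10 of the 14 genes with a peak in both replicates lie below the dotted line, as do all 5 with one in replicate 1 only and all 9 with none.

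Of 19 other genes of these families, 7 were marked and 3 had a peak over a start in both replicates. Of the 17 that GENCODE M21 lists as coding, 6 were marked, against 51.7% of coding genes. A peak over a start in both replicates was found at 3 of these 17, against 35.3% of coding genes. On chromosome 5, Gbp9 had folds of 15.7 and 4.70 in replicates 1 and 2, and Gbp8 had 6.91 and 3.13 beside an internal start, 74 and 216 bp away. Gbp4, Gbp10 and Gbp11 had no peak in either replicate. In the Irgm1 cluster, Gm5431 had folds of 35.7 and 12.1 and Ifi47 (also called Irg47) had 30.3 and 10.4. These Ifi47 peaks began 9972 and 10043 bp downstream of its principal start in replicates 1 and 2, over internal starts. At the principal start the Ifi47 folds were only 8.22 and 3.26, above 25.1% and 2.72% of the peaks of the replicates. In replicate 2 that lower peak did not cover the principal start and began 18 bp downstream of it. The higher Ifi47 peak also covered a start of Olfr56, an olfactory receptor gene, 5 bp from an Ifi47 start. Tgtp2, 9930111J21Rik1 and 9930111J21Rik2 had peaks in replicate 1 and not in replicate 2, with highest folds of 7.29, 4.48 and 3.92, and Tgtp1 and Gm12185 had none.

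Beside Igtp, Gm12250 (also called Irgb10), which helps expose bacterial products to inflammasomes, had a peak with folds of 26.7 and 11.6 in the replicates. GENCODE M21 lists it as a processed pseudogene starting 2072 bp from the peak of replicate 1, whereas RefSeq lists it as protein-coding with a start at position 58183843 of chromosome 11, inside the peak in each of the 4 lists. In the cluster of Iigp1, Gm4951 had folds of 14.9 and 5.35, and Gm4841 and F830016B08Rik had no peak. Of the related genes on chromosome 7, Irgq had folds of 42.4 and 14.4, and Irgc1, a gene of the testis, had no peak.

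**Figure D5:**
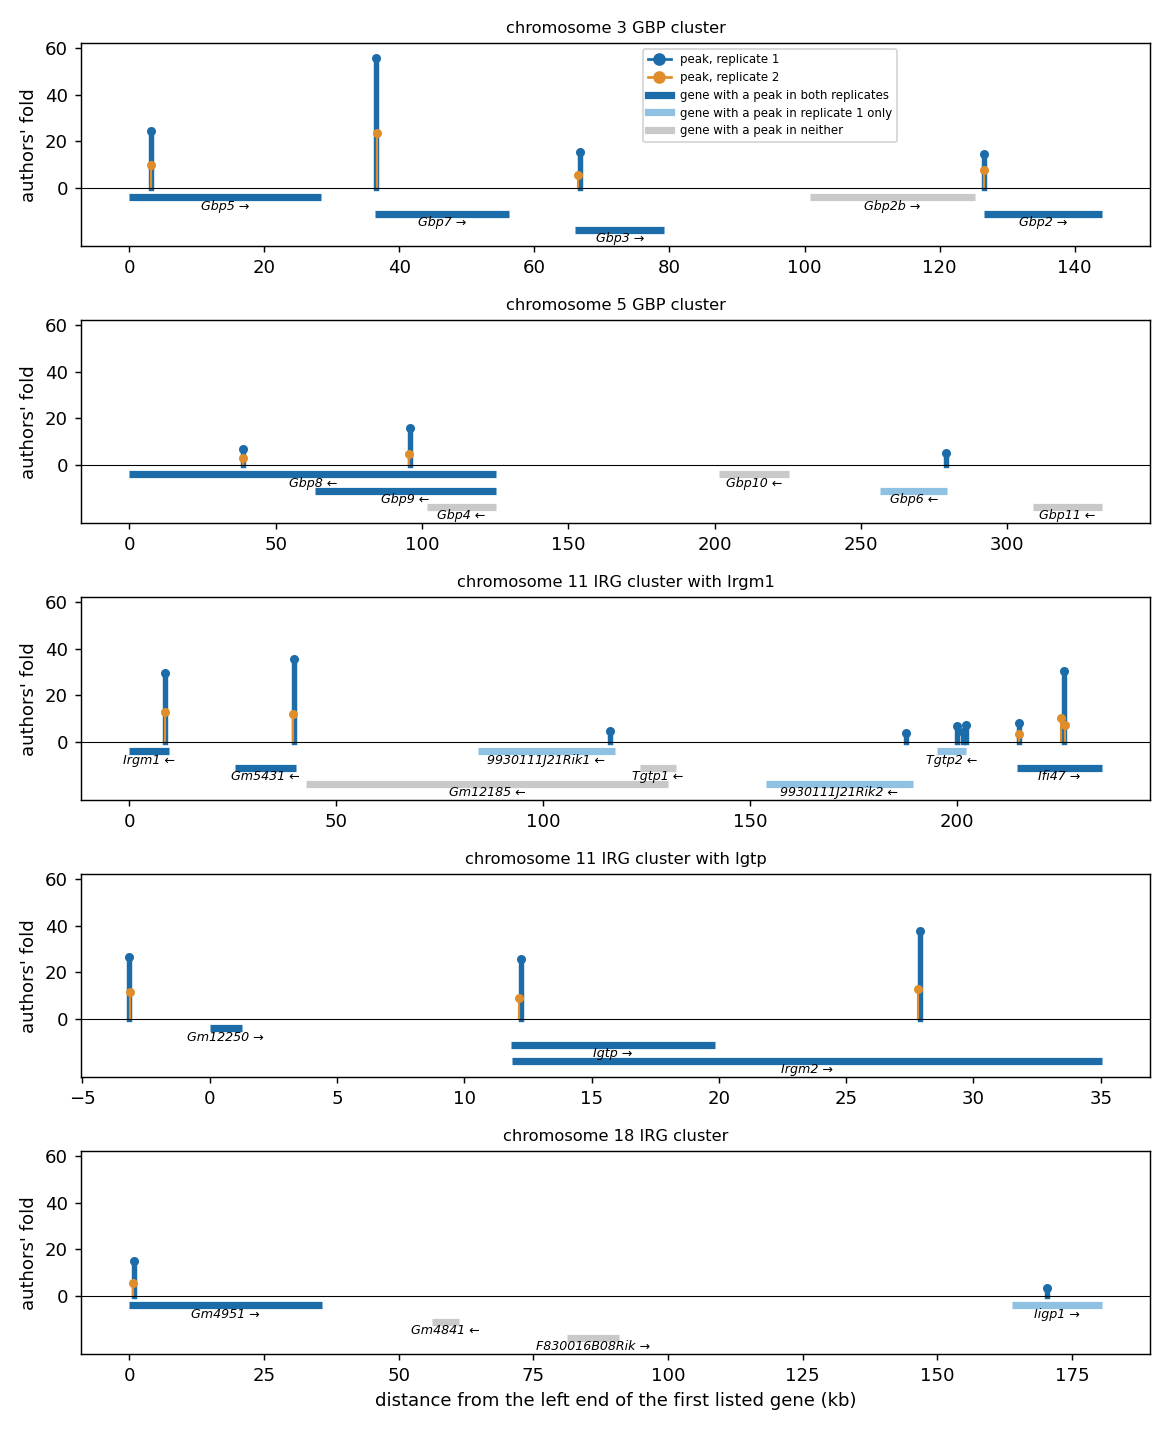
For each of 5 clusters, stems give the authors' fold of each peak within 5 kb of a listed start in replicate 1 (blue) and replicate 2 (orange) along the distance from the left end of the first listed gene (kb), and horizontal bars below give the genes, coloured by the replicates with a peak; arrows give the strand. The chromosome 3 cluster has a peak at each gene except Gbp2b, and in the chromosome 18 cluster only the peak at Gm4951 is in both replicates.

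Several of these genes are near-identical copies, so reads from them may be hard to place and their peaks are uncertain. Of the 50-base sequences within 1 kb of the principal start, 95.3% at 9930111J21Rik1, 95.2% at 9930111J21Rik2, 62.7% at Tgtp2 and 41.0% at Tgtp1 occurred more than once in the genome. The share was 0% at Gbp2, Gbp3, Gbp7 and Irgm1, 1.59% at Gbp5, 14.2% at Irgm2 and 15.7% at Igtp. At Gbp6 it was 16.0% and at Iigp1 17.1%. At the unmarked Gbp2b it was 1.90%. The part of repeated sequence in the missing peaks was not tested, and the read length is not given in the sources used here.

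Genes that act with these GTPases were marked at rest with few exceptions, 40 of 42 by the rule under which 51.7% of coding genes were called. Not all of the 40 had a peak over a start in both replicates, which 35.3% of coding genes had. Those without were Ifngr2, Ifnar1, Jak1, Socs1, Ptpn2, Atg3, Atg5, Atg16l1, Map1lc3a, Traf6 and Fnta. Their nearest peaks lay at most 422 bp from a start. Of the interferon receptor and ligand genes, 4 of 6 were marked, among them Ifngr2 with a domain of 3217.5 ± 1087 bp and Ifnar2 with 2840 ± 194 bp (SD, n = 2 for each). The ligand genes Ifng and Ifnb1 were the unmarked ones, with the nearest peaks of replicate 1 at 158633 and 6700 bp. All 12 signalling and transcription factor genes were marked, with Irf2 (4613.5 ± 354 bp) and Irf8 (3881 ± 660 bp), a regulator of myeloid cells, the widest (SD, n = 2 for each). All 13 genes of ubiquitin-like conjugation and vacuole targeting were marked, with Atg12 (3365.5 ± 187 bp) and the autophagy receptor gene Sqstm1 (2974.5 ± 631 bp) the widest (SD, n = 2 for each). All 5 genes of the prenylation group, the pathway of the lipid that anchors some guanylate-binding proteins, were marked. Rce1 (2037 ± 311 bp) and Icmt (1729 ± 178 bp) were the widest (SD, n = 2 for each). All 6 inflammasome genes were marked, with Nlrp3 (3431 ± 358 bp) and the DNA sensor gene Aim2 (3080 ± 996 bp) the widest (SD, n = 2 for each).

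The replicate 1 list held 20031 peaks, the replicate 2 list 16376, the pooled list 18898 and the replicated list 16957. The labelled cell type was checked against its markers: 10 of 10 macrophage genes were marked, whereas none of 4 T cell, 4 B cell, 4 neutrophil, 3 dendritic cell and 3 fibroblast genes were. By the same rule 51.7% of coding genes were called. Cd79a (fold 9.90) and Zbtb46 (fold 3.74) had a peak within 5 kb in replicate 1 only. Some of the unmarked calls rest on the 5 kb limit. The nearest peaks lay 5398 and 5483 bp from a Cd3g start in replicates 1 and 2. They lay 5847 bp from a Cd4 start in replicate 1 and 5101 bp from a Cd79a start in replicate 2. The lists hold no read counts, so the depth of the libraries is unknown, and a missing peak in replicate 2 is not shown to be absence of the mark.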

How the data were processed

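H3K4me3 ChIP-seq peaks of 2 replicates of 1 group were analysed, with no comparison between conditions and no test. Per the labels' provenance texts, the authors called pseudoreplicated peaks on each replicate's alignments and on both together, and a replicated list, all on mm10. Caller, version and thresholds: not given in the sources used here. The deposited narrowPeak lists give for each peak the fold, a ratio to a background that is not stated, and the −log10 of its p and q. Fold ranks and percentiles were taken within a list. Mapping to GENCODE M21 starts on 21 chromosomes used an overlap of at least 1 bp with the window of 5000 bp on either side; 0 peaks lay beyond a chromosome end of GRCm38.p6. The principal start is that of the APPRIS principal transcript of best annotation level, then the most 5′. Joining used 1000 bp. Promoter sequences are from RefSeq (GRCm38.p6). Python 3.11.15, numpy 2.4.6 and numba 0.67.0 were used. The window routine gave the direct answer in 400 of 400 simulated windows. Members and gene lists were chosen with earlier results of these data known. By rule, all members, all marked GTPase genes of the clusters, and of each pathway group the unmarked genes and the 2 widest were named. Other windows, starts, joining distances, thresholds and lists were tried as alternatives.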

Additional observations from a re-analysis of the deposited data

How the results depend on the processing

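The count of marked members was 7 of 9 with windows of 1 and 2.5 kb, with the 5′ end of the gene only, with an overlap of 200 bp, with the 15000 peaks of highest −log10 p per list and with the authors' replicated list, and 8 with their pooled list. Leaving out a replicate gave 7 to 9 for the members (9 without replicate 2), 7 to 10 for the other GTPase genes and 40 for the pathway genes. Over all alternatives the other GTPase genes ranged from 5 (5′ end only) to 10 of 19 and the pathway genes from 39 to 40 of 42. Of all coding genes, 55.1% were called with the pooled list, 53.6% with the replicated list, 51.7% without replicate 1 and 56.1% without replicate 2. For the other windows, the 5′ end, the overlap of 200 bp and the 15000 peaks, the share of coding genes was not computed. The counts under those settings therefore have no background beside them. The members with a peak over a start ranged from 7 to 9. The median width of marked members, 1666 bp, was the same with no joining and with joining over 3 kb, was 1868.5 bp in the pooled and 1871 bp in the replicated list, and ranged from 1473 to 1820 bp when a replicate was left out. Restricted to the 7 members marked in both replicates, an alternative chosen after seeing the data, it was 1871 bp in the pooled list and 1859 bp without replicate 2. In the pooled and replicated lists, Gbp3 (2043 bp) and Irgm2 (2399 bp) moved beyond the SD of the replicates. No paired analysis was possible because there is 1 group. Depth is unknown.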

Other observations

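Beyond the 3′ end of Irgm1 lay a pair of H3K4me3 regions within 5 kb of no start of a listed GTPase gene. The first, chr11:48852767-48854456 in replicate 1 (fold 28.8) and chr11:48852944-48854255 in replicate 2 (fold 11.1), covered the start of Gm16170, an annotated antisense RNA gene 17881 bp from the nearest Irgm1 start. The second, chr11:48854566-48858699 in replicate 1, measured 4134 bp with a fold of 35.5, above 70.4% of the peaks of that list and higher than the 29.7 at Irgm1 itself. In replicate 2 it was split into peaks of 1658 bp (fold 13.4) and 1723 bp (fold 4.70), and in the pooled and replicated lists it was a single peak of 3940 bp with a fold of 24.4. It overlapped no gene annotated in GENCODE M21, and the nearest start, that of Gm16170, was 1073 bp away in replicate 1 and 1485 bp away from the first of the peaks of replicate 2. In every list the pair of regions lay within 1 kb of each other. The joining used for domain widths would thus make them a single domain that covers the Gm16170 start.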
